A study of Mus musculus with 26 samples.

Results

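Broad SMC3 regions are stretches of at least 3 kb that were covered by peaks of the cohesin subunit SMC3 in C2C12 cells. Peaks of the 6 SMC3 lists that overlapped by at least 1 bp were merged on chromosomes 1 to 19 and X, which gave 43783 regions. A region was taken as broad if it was 3000 bp or wider, was called in both myotube lists and was called in at least 1 myoblast list, and 857 regions met this rule. The other 12643 regions called in the same way but narrower than 3000 bp serve as the comparison, so the call rule alone held for 13500 regions. The members were chosen by the measured widths and calls of SMC3 peaks, so SMC3 values from those lists are given as a description only.

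C2C12 is a mouse muscle line that grows as single myoblasts and fuses into multinucleate myotubes when serum is withdrawn. Per the labels' protocols, cells grew in 20% fetal bovine serum and differentiated in 2% horse serum. SMC3 chromatin immunoprecipitation (ChIP-seq), with the same antibody throughout, was done in myotubes transfected with siDRR, an siRNA against the DRR enhancer RNA, in myotubes with no transfection label, and in myoblasts. Accessible chromatin was mapped by ATAC-seq in myotubes transfected with siDRR, with siSmc3 or with Control. Chromatin that the DRR RNA touches was mapped by ChIRP-seq in myotubes with 2 probe pools. Each of these 8 groups had n = 2 libraries of 1 cell line, and the labels name no separate cultures. The p-values below therefore measure only the spread between these libraries, which may be technical. The siDRR libraries of the SMC3 experiment have no library labelled as transfected with a control siRNA beside them, so siDRR and transfection cannot be told apart there. The 10 input and LacZ probe samples, the levels of DRR and Smc3 RNA, and markers of myoblasts and myotubes were not analysed here.

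Cohesin is a ring of SMC1, SMC3, RAD21 and a STAG protein that holds sister chromatids together and extrudes loops of chromatin. Loaders such as NIPBL place the ring on DNA, WAPL releases it, and CTCF bound in one orientation halts it, which is why SMC3 ChIP usually gives narrow peaks at CTCF sites. Wider SMC3 signal is known from active promoters and enhancers, where loaders and transcription machinery sit. The DRR, or distal regulatory region, is an enhancer upstream of Myod1, the gene of a master regulator of muscle, and it is transcribed into an enhancer RNA. The peak lists carry coordinates of mouse build mm9 and no gene names. Regions are therefore given by mm9 position, and the genes at them were not identified.

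The SMC3 lists differed in length, and this touches each SMC3 value below. They held 8384 and 23196 peaks in siDRR myotubes, 15056 and 26765 peaks in myotubes, and 30955 and 33154 peaks in myoblasts. The lists give no read counts, so the sequencing depth is unknown. In bulk samples such as these, fewer cells carrying a peak and less SMC3 per cell cannot be told apart. At most 1.41% of the intervals of a list recurred exactly in another, so no list was counted as a copy.

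The 857 broad regions spanned 3000 to 15545 bp, with a median of 3816 bp and quartiles of 3355 and 4805 bp. They summed to 3.72 Mb, against 18.4 Mb for the narrower regions, whose median width was 1311 bp. Most were wide inside at least 1 library and were not only made wide by merging. A single peak of 3 kb or more lay in at least 1 list for 781 members (91.1%), and the other 76 reached 3 kb only where peaks of several lists overlapped in part. For 282 members (32.9%) such a peak lay in exactly 1 of the 6 lists. It lay in both myotube lists for 258 members, in both myoblast lists for 354 and in both siDRR lists for 15. Of all 2334 merged regions of 3 kb or more, 1080 were called in exactly 1 myotube list and 368 in none, and both of these sets fell outside the rule. Another 29 were called in both myotube lists and in no myoblast list.

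Just inside the width limit lay chr16:86301910-86304909 at 3000 bp, chr15:66506850-66509850 at 3001 bp and chr18:60754735-60757736 at 3002 bp. Just outside it were 3 regions of 2999 bp, chr3:138736400-138739398, chr4:131900253-131903251 and chr7:148232642-148235640. The first of the regions just inside had a widest peak of 1346 and 1485 bp in the myotube lists, so merging alone carried it over the limit.

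The widest single SMC3 peak within a member was shortest in the siDRR lists. Its median was 1411 and 2111 bp in siDRR myotubes, 2903 and 2703 bp in myotubes, and 2997.5 and 3452.5 bp in myoblasts. The 3 groups did not overlap on this measure, but the myotube and myoblast widths helped to choose the regions, so no test is given. A single peak of 3 kb or more was present in 20 and 179 members in the siDRR lists, in 401 and 340 members in the myotube lists, and in 392 and 620 members in the myoblast lists. In 313 members a myotube list had such a peak and no siDRR list did, and in 14 members a siDRR list had one and no myotube list did. Part of this order is set by the rule, which asked for calls in the myotube lists only. Anywhere in the genome, the siDRR lists held just 25 and 372 peaks of this width, against 444 and 822 in the myotube lists.

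**Figure D1:**
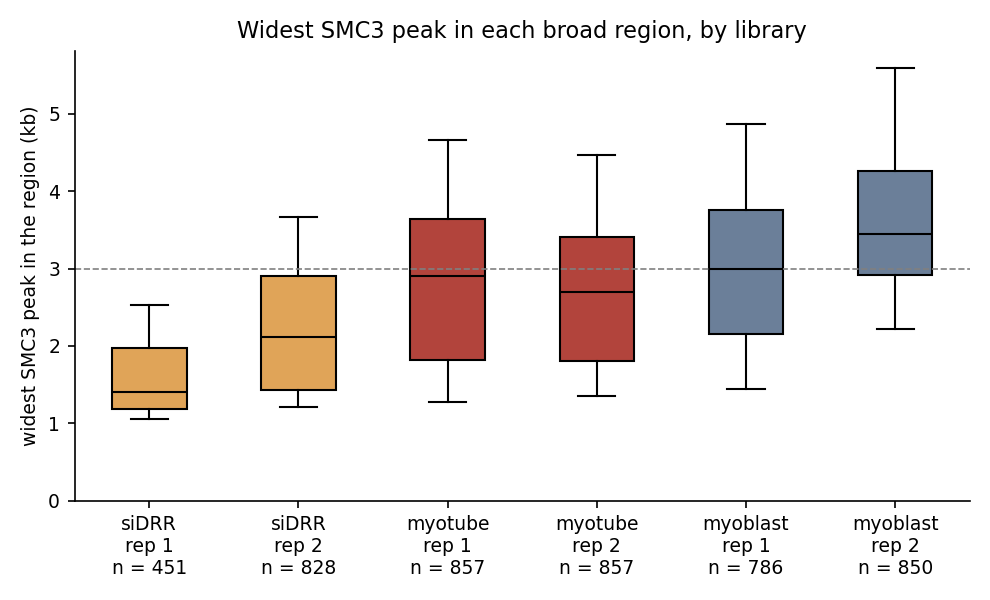
Widest SMC3 peak in each broad region (kb) by library, over the members with a peak in that library. Boxes span the quartiles, the line is the median, whiskers reach the 10th and 90th percentiles, and the dashed line marks 3 kb. The medians of 1411 and 2111 bp in siDRR myotubes lie below the 2903 and 2703 bp of myotubes.

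SMC3 peaks covered 21.0% and 59.5% of the members' bases in siDRR myotubes, 69.4% and 72.5% in myotubes, and 71.3% and 88.5% in myoblasts. In the narrower regions the same shares were 39.2% and 75.1% in siDRR myotubes, 84.4% and 80.6% in myotubes, and 82.2% and 92.3% in myoblasts. Both siDRR libraries lay below both myotube libraries in the broad and in the narrower regions alike. The rule required a call in both myotube lists but did not ask for one in the siDRR lists, so part of this order is set by the choice of regions. The siDRR libraries also lay far apart from each other, and the lower one is the shortest list.

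Compared within the same member, the widest siDRR peak was shorter than the widest myotube peak in the median member. In siDRR replicate 1 the median ratio over the 451 members with a peak was 0.704 against myotube replicate 1 and 0.685 against myotube replicate 2. In siDRR replicate 2, over 828 members, the ratios were 0.886 and 0.883. For scale, the ratio of replicate 1 to replicate 2 was 0.851 within siDRR myotubes, 1.02 within myotubes and 0.920 within myoblasts. The siDRR replicate 2 ratios thus lay no further from 1 than the ratio between the siDRR replicates themselves. The bases covered in both libraries of a group were 19.8% of the members' width in siDRR myotubes, 60.6% in myotubes and 68.0% in myoblasts.

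Most members kept at least 1 SMC3 peak in the siDRR lists. Of 857 members, 451 (52.6%) were called in both siDRR lists, 377 in replicate 2 only, 0 in replicate 1 only and 29 (3.38%) in neither. Over all 13500 regions under the call rule, 52.7% were called in both siDRR lists and 5.41% in neither, so the broad regions lay near the background on both counts. In siDRR replicate 1, 52.6% of members had a peak (95% exact binomial interval 49.2 to 56.0%), against 53.3% of narrower regions. In siDRR replicate 2 the shares were 96.6% of members (95.2 to 97.7%) and 93.8% of narrower regions. These intervals cover counting error only. In all, 442 members (51.6%) were called in all 6 SMC3 lists, and 779 (90.9%) in both myoblast lists. The rule itself required a call in at least 1 myoblast list. By myoblast library, 91.7% and 99.2% of members had a peak, against 98.4% and 98.4% of narrower regions. The shares of narrower regions called in both myoblast lists or in all 6 lists were not counted.

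The place of a member's best peak in the score ranking of the myotube lists went with its calls under siDRR. Peaks were ranked by the authors' score inside their own list, on a scale whose top is 100, and members were split into 4 bins of 214 or 215 by their mean rank in both myotube lists. From the lowest to the highest bin, 15.8%, 43.5%, 68.7% and 82.7% of members were called in both siDRR lists. No such bins were made for the narrower regions, so this order is not shown to be particular to broad regions. Of the 29 members called in neither siDRR list, 28 lay in the lowest bin and 1 in the next. Their median rank was 28.8, against 68.8 for members called in a siDRR list. The part of rank, depth and list length in these calls was not tested.

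Among the 29 members without a siDRR peak, chr16:24174028-24178343 had the best mean rank, 58.5. Its widest peak was 4091 bp in myotube replicate 1, 2514 bp in replicate 2 and 1399 bp in myoblast replicate 2, and myoblast replicate 1 had no peak. Next came chr9:94568534-94572536, with peaks of 3831 and 3286 bp in myotubes and 3236 and 2987 bp in myoblasts. The member chr13:34220464-34224242 had peaks of 3774 and 3336 bp in myotubes and of 3119 bp in myoblast replicate 2. Of the 29, 23 had an ATAC peak in both control lists, 4 in only 1 and 2 in neither, where 735 of all 857 members (85.8%) had one in both and the background over all 43783 SMC3 regions was 39.8%. At the 3 members just named all 6 ATAC lists had a peak.

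The widest member, chr13:16098523-16114067, owed its 15545 bp to a single library. Myoblast replicate 2 had 1 peak of 15178 bp there, while myoblast replicate 1 had 5 separate peaks of at most 2827 bp. In siDRR myotubes replicate 1 had no peak and replicate 2 had peaks of 2082 and 1181 bp. In myotubes replicate 1 had 1 peak of 1104 bp and replicate 2 had 2 peaks of at most 2204 bp. Myotube SMC3 at this locus was therefore narrow in both libraries.

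The second widest, chr15:61813406-61826691 with 13286 bp, was broad in nearly every library. Its single peak measured 7406 bp in siDRR replicate 2, 6824 and 7993 bp in myotubes, and 10759 and 12862 bp in myoblasts, and siDRR replicate 1 had none. It ranked at 98.5 and 99.97 in the myotube lists. ATAC peaks covered 33.4% and 34.4% of it in siDRR myotubes, 32.3% and 33.8% in siSmc3 myotubes, and 42.7% and 39.5% in control myotubes. Both ChIRP libraries of pool 2 had a summit near one end of it, and pool 1 had none.

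The best-ranked member in myotubes was chr16:30061990-30071751, 9762 bp wide. Its peak measured 9173 and 8802 bp in myotubes and 9308 and 9762 bp in myoblasts. In siDRR myotubes replicate 1 had a peak of 2117 bp and replicate 2 had peaks of 5708 and 3392 bp. These peaks covered 21.7% and 93.2% of the region in siDRR myotubes, against 94.0% and 90.2% in myotubes, so only siDRR replicate 1 left most of it uncovered.

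**Figure D2:**
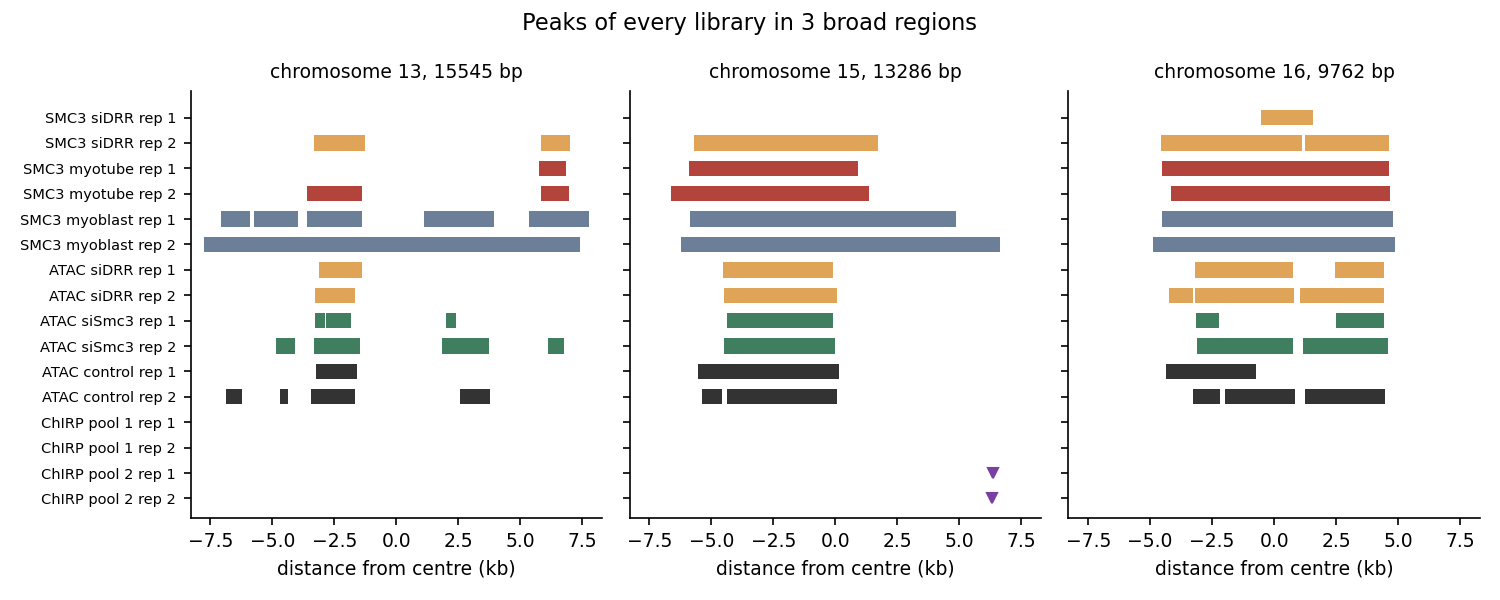
Peaks of all 16 libraries in 3 broad regions, by distance from the region's centre (kb). Bars are SMC3 and ATAC peaks, triangles are ChIRP summits. The region on chromosome 13 has 1 peak of 15178 bp in myoblast replicate 2 and only short peaks elsewhere, while those on chromosomes 15 and 16 hold peaks of 6824 to 12862 bp in all 4 myotube and myoblast libraries.

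The other 6 of the 8 widest members had a single peak of 3 kb or more in 1 to 5 of the 6 SMC3 lists. The member chr11:117171502-117182305 had peaks of 5583 and 10396 bp in myotubes and at most 5884 bp in myoblasts, so its widest peak was in myotubes. At chr8:129110735-129121171 the widest peak was 3650 and 4947 bp in myotubes, against 5232 and 10383 bp in myoblasts. At chr15:99417745-99428950 the widest peak was 1563 and 4353 bp in siDRR myotubes, 2413 and 2476 bp in myotubes, and absent and 11206 bp in myoblasts. Likewise chr12:25776563-25786940, chr2:71376504-71386821 and chr3:145307251-145318542 had their only peak over 10 kb in myoblast replicate 2, at 10378, 10316 and 11292 bp. Of the 8 widest members, 7 had their widest peak in myoblast replicate 2.

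Whether wide SMC3 peaks differed between the groups was also measured without the choice of regions, as the share of all peaks of a list that were 3 kb or wider. This share was 0.298% and 1.60% in siDRR myotubes, from 25 and 372 peaks, against 2.95% and 3.07% in myotubes, from 444 and 822 peaks. It averaged 0.951 ± 0.923% in siDRR myotubes and 3.01 ± 0.0864% in myotubes (SD, n = 2 each), a difference of -2.06 percentage points. The groups did not overlap, but the exact two-sided permutation p was 0.333, the smallest that 2 libraries against 2 can give, and 0.6 adjusted over the 9 comparisons described below. When every list was reduced to its best-scoring 8384 peaks, the shares were 0.298% and 2.97% in siDRR myotubes and 2.93% and 4.91% in myotubes. The groups then overlapped, with a difference of -2.29 points and an exact permutation p of 0.667. Between myotubes and myoblasts, where the shares were 2.95% and 3.07% against 2.67% and 5.16%, the difference of -0.906 points was within the spread of the myoblast libraries (exact permutation p = 1, also after adjustment).

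A second check took 1355 regions of 3 kb or more that were merged over and called in both myoblast lists alone, so that neither siDRR nor myotube peaks played a part in the choice. In siDRR myotubes 31.6% and 84.0% of them had a peak, against 47.0% and 87.6% in myotubes. SMC3 peaks covered 13.3% and 52.9% of their bases in siDRR myotubes and 32.1% and 62.2% in myotubes. In myoblast regions under 3 kb, chosen in the same way, the shares covered were 24.3% and 58.6% in siDRR myotubes and 46.0% and 63.3% in myotubes, a difference of -13.2 points. For the wide regions the difference of -14.0 points lay within the spread between libraries (exact permutation p = 0.667, adjusted p = 1), and with lists of equal length it was -5.54 points (p = 0.667 in the same exact permutation test). The share of wide regions called differed by -9.52 points with full lists (-13.6 in regions under 3 kb), and with lists of equal length it turned to 1.44 points. With n = 2 a group, no such test could have passed 0.05.

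Accessibility was independent of the rule, and it set the broad regions apart from the narrower ones in each ATAC library. ATAC-seq marks open DNA by transposase insertion, and its peaks lie mostly over nucleosome-depleted promoters and enhancers. An ATAC peak lay in 88.4% and 97.5% of members in siDRR myotubes, in 85.4% and 97.1% in siSmc3 myotubes, and in 86.2% and 96.8% in control myotubes. The shares of narrower regions were 31.8% and 61.9%, 27.5% and 59.3%, and 24.8% and 51.8% in the same order. A longer region meets a peak more easily, so the share of bases covered is the fairer measure.

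ATAC peaks covered 31.6% and 49.7% of the members' bases in siDRR myotubes, 28.0% and 47.3% in siSmc3 myotubes, and 36.2% and 44.3% in control myotubes. In narrower regions they covered 14.6% and 30.2% in siDRR myotubes, 12.4% and 28.4% in siSmc3 myotubes, and 14.2% and 23.3% in control myotubes. Broad regions averaged 39.5 ± 8.86% and narrower ones 20.5 ± 7.81% (SD, n = 6 libraries). The difference was 19.0 points, ranging over libraries between 15.7 and 21.9, and was positive in 6 of 6 libraries. The exact two-sided sign-flip permutation p was 0.0313, the smallest 6 libraries can give. Adjusted by the Benjamini-Hochberg method over 9 main comparisons of libraries, it was 0.141 and did not pass 0.05. Tests under other settings, such as lists of equal length or the replicate block, were not part of this adjustment. Over the central 1 kb of each region, which gives both sets the same length, the difference from all narrower regions was 27.4 points (24.3 to 31.3).

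**Figure D3:**
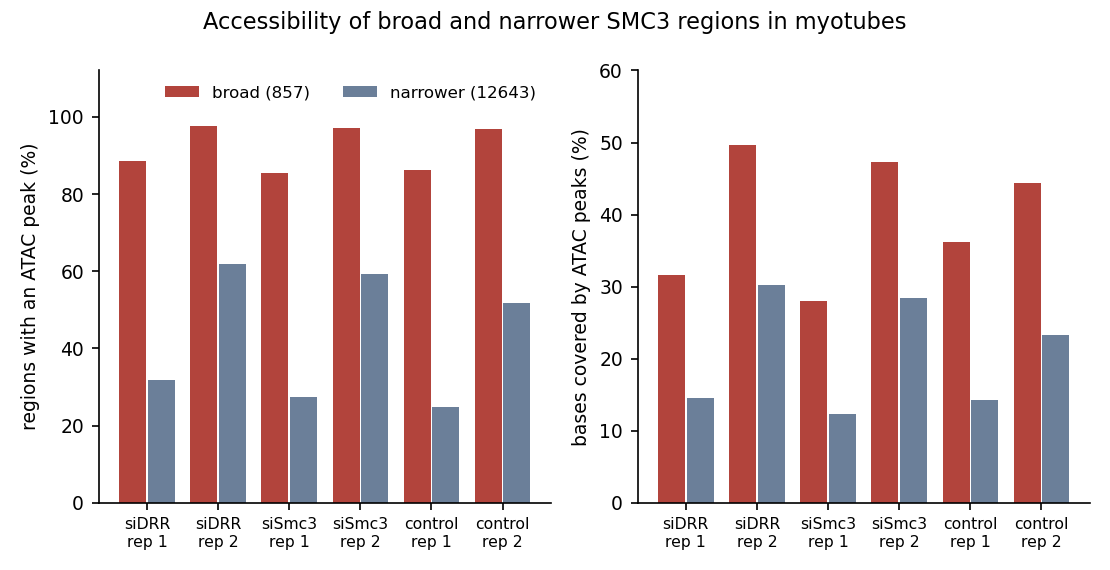
Share of regions with an ATAC peak (left) and share of bases covered by ATAC peaks (right) in each of the 6 ATAC libraries, for the 857 broad and 12643 narrower SMC3 regions. In each library the broad bar stands above the narrower one, by 15.7 to 21.9 points in bases covered.

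Along the width classes the share of regions with an ATAC peak was higher in each wider class in 5 of 6 libraries. In siSmc3 replicate 1 it was 91.2% at 4 to 6 kb and 87.9% at 6 kb or more. In control replicate 1 the share of regions with an ATAC peak was 6.31% below 1 kb, 16.4% between 1 and 1.5 kb, 38.2% between 1.5 and 2 kb and 58.7% between 2 and 3 kb. Inside the broad set it was 79.2% between 3 and 4 kb, 94.7% between 4 and 6 kb and 96.7% at 6 kb or more. The share of bases covered did not follow this order to the end. In control replicate 1 it was 28.6% at 2 to 3 kb, 35.7% at 3 to 4 kb, 38.1% at 4 to 6 kb and 33.5% at 6 kb or more, and in control replicate 2 it was 37.9%, 45.1%, 46.0% and 39.5% in the same classes. In all 6 libraries the 91 widest members had less of their bases covered than members of 3 to 4 kb. Set against the 1485 narrower regions of 2 to 3 kb alone, broad regions had 5.78 points more of their bases covered (4.87 to 7.61, in 6 of 6 libraries). The exact permutation p was 0.0313, again the smallest possible, and 0.141 after adjustment. Over the central 1 kb, the difference from regions of 2 to 3 kb was 5.49 points (3.43 to 7.70). Comparisons with this width class were added after the data had been seen.

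SMC3 cover in the siDRR lists was highest at intermediate widths. In siDRR replicate 1 SMC3 peaks covered 12.8% of bases in regions under 1 kb, 39.3% at 1 to 1.5 kb, 45.5% at 1.5 to 2 kb, 34.7% at 2 to 3 kb, 25.2% at 3 to 4 kb, 20.7% at 4 to 6 kb and 11.8% at 6 kb or more. In siDRR replicate 2 the same classes had 51.3%, 79.1%, 73.4%, 66.5%, 59.4%, 61.2% and 56.7%. Myotube cover was lower in wide regions as well: from the 1.5 to 2 kb class upward it was 80.9%, 76.5%, 73.5%, 69.3% and 59.9% in replicate 1, and in replicate 2 it was 78.5% at 1.5 to 2 kb and 71.5% to 73.6% in the 3 broad classes. Both siDRR lists called 15.5% of regions under 1 kb, 49.4% of those of 1 to 1.5 kb, 66.2% of those of 1.5 to 2 kb, 60.3% of those of 2 to 3 kb, and then 54.3%, 52.3% and 45.1% of the 481, 285 and 91 members in the 3 broad classes.

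**Figure D4:**
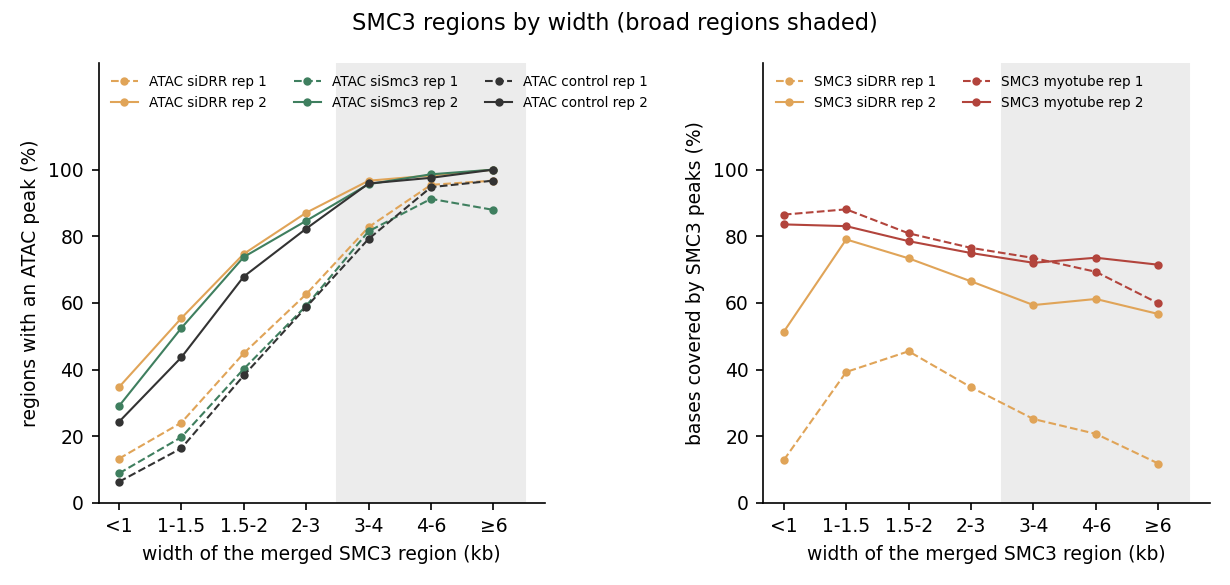
Share of SMC3 regions with an ATAC peak (left) and share of their bases covered by SMC3 peaks (right), by width of the merged region (kb), with 1 line per library and the broad classes shaded. The ATAC share is higher in each wider class, up to 96.7% in control replicate 1 at 6 kb or more, except in siSmc3 replicate 1, where the last class has 87.9%, while siDRR replicate 1 covers 25.2% of bases at 3 to 4 kb and 11.8% at 6 kb or more.

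Averaged over all members, ATAC cover formed a plateau around the centre, while over narrower regions it stood highest at the centre. The plateau is an average over members and does not give the shape within a single member. In control replicate 1 an ATAC peak covered the centre of 47.0% of broad and 20.3% of narrower regions. At 950 bp before and after the centre the shares were 47.4% and 43.6% of broad regions, against 3.15% and 2.98% of narrower ones. At 1950 bp they were 10.2% and 12.3% of broad regions against 2.69% and 2.68%, and at 4950 bp they were 4.78% and 6.30% against 3.61% and 3.65%. Broad regions thus stood well above the narrower ones out to about their own edges, and close to them at 4950 bp. A point at 950 bp lay inside each broad region but outside most narrower ones, whose median width was 1311 bp, so width sets part of that gap.

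**Figure D5:**
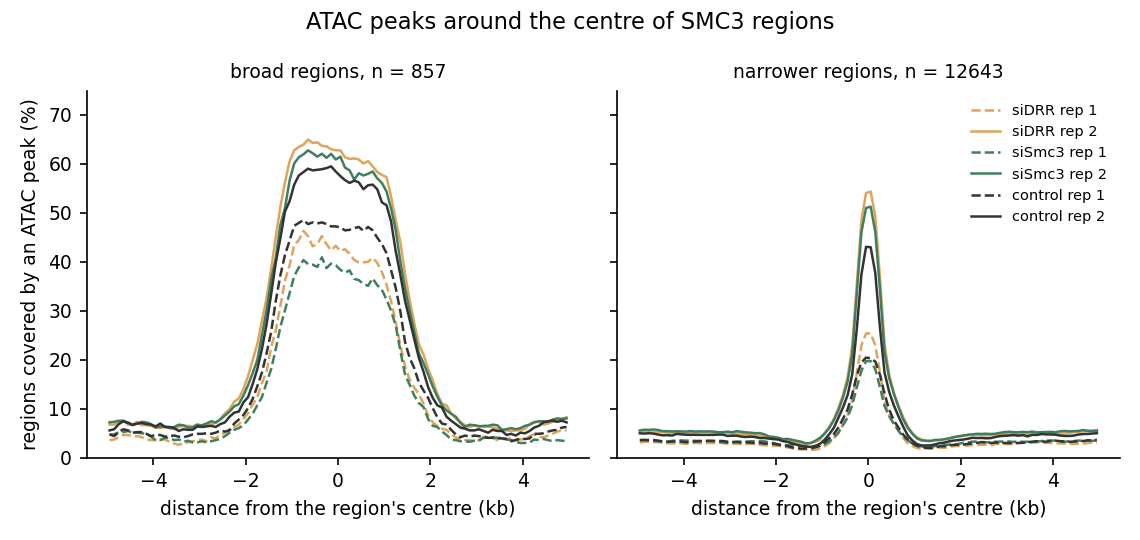
Share of regions covered by an ATAC peak at each distance from the region's centre (kb), in bins of 100 bp, for each ATAC library. The average over broad regions (left) holds a plateau about 2 kb wide, at 47.0% in the centre in control replicate 1, and that over narrower regions (right) a sharp peak, at 20.3%.

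Many members held several open sites. Depending on the library, 22.4 to 44.1% of members had 2 or more ATAC peaks, against 1.22 to 5.30% of narrower regions. These counts are not scaled for length, and in narrower regions of 2 to 3 kb the share was already 7.21 to 22.8%. Per Mb, members held 254 and 347 ATAC peaks in the control libraries, against 275 and 440 in regions of 2 to 3 kb. In the siDRR and siSmc3 libraries members also held fewer ATAC peaks per Mb than regions of 2 to 3 kb. In all, 652 members (76.1%) had a peak in all 6 ATAC lists, against 1552 narrower regions (12.3%). Merged ATAC regions that were themselves 3 kb or wider overlapped 212 members (24.7%) and 44 narrower regions (0.348%). Of the 1293 such wide ATAC regions, 215 (16.6%) overlapped a member.

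The most open members in control myotubes were covered nearly end to end. At chr15:76033413-76039447 ATAC peaks covered 91.7% and 88.2% in siDRR myotubes, 0% and 98.2% in siSmc3 myotubes, and 96.1% and 98.7% in control myotubes. The siSmc3 libraries disagreed completely there, so no direction can be read. At chr4:128962775-128966519 the shares were 80.9% and 91.9% in siDRR myotubes, 79.0% and 90.6% in siSmc3 myotubes, and 93.0% and 89.6% in control myotubes. At chr10:80869850-80872857 they were 51.8% and 47.5% in siDRR myotubes, 42.0% and 89.3% in siSmc3 myotubes, and 96.8% and 86.9% in control myotubes. There both siDRR libraries, but only 1 siSmc3 library, lay below both control libraries. These loci were picked for high control values, so lower values elsewhere are partly set by that choice.

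A few members were closed or nearly so. ATAC peaks were missing from all 6 lists at 3 members (0.350%), chr2:125718260-125721391, chr14:70578750-70581811 and chr15:78681114-78684220, against 2738 narrower regions (21.7%). Neither control list had a peak at 23 members. Their median mean rank in the myotube SMC3 lists was 82.3, against 66.5 for the 735 members open in both control lists. By library the medians were 73.2 against 53.4 in myotube replicate 1, but 85.8 against 84.1 in replicate 2. The gap thus lay mostly in replicate 1. Members with the best mean SMC3 rank over both myotube lists were also the least open. From the lowest to the highest rank bin, ATAC peaks of control replicate 1 covered 40.3%, 40.3%, 35.5% and 28.8% of bases. Those of control replicate 2 covered 47.5%, 47.7%, 44.6% and 37.7%. The bins were not made for each myotube list alone. The bins had median widths of 3775 to 3856.5 bp. An example is chr13:98706729-98710323, with SMC3 peaks of 2414 and 2728 bp in siDRR myotubes, 2848 and 3473 bp in myotubes and 2865 and 3367 bp in myoblasts. It ranked at 99.7 or better in all 6 SMC3 lists and had no ATAC peak in either control library, with 23.9% of its bases covered in siDRR replicate 2 and 11.2% in siSmc3 replicate 2.

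The kind of SMC3 list in which a member carried a single wide peak was set beside its accessibility in myotubes. A peak of 3 kb or more lay in a myotube list and in no myoblast list at 118 members, and in both kinds of list at 365. It lay in a myoblast list and no myotube list at 293, and in neither kind at 81. A single list was enough for a class, and the myoblast lists had such a peak at 392 and 620 members. The classes are therefore not shown to be cell stages. ATAC peaks of control myotubes covered 38.7% and 45.1% of the bases of the first class and 28.4% and 39.6% of the myoblast class. Over the 6 ATAC libraries the difference was 4.59 points, ranging between -0.955 and 10.2 and positive in 5 of 6 libraries. It did not pass the exact sign-flip permutation test (p = 0.0625, adjusted p = 0.188 over 9 comparisons).

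Knockdown moved the accessibility of the broad regions by less than the libraries of a group differed. ATAC cover averaged 40.6 ± 12.8% in siDRR myotubes and 40.3 ± 5.77% in control myotubes (SD, n = 2 each), a difference of 0.361 points with an exact permutation p of 1. In siSmc3 myotubes it averaged 37.7 ± 13.6%, a difference of -2.59 points from the same controls (exact permutation p = 1). With 2 libraries a group, the smallest possible p was 0.333, and both adjusted values were 1.

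Calls at single open sites gave the same picture. ATAC regions merged over the 4 lists of a comparison were counted as lost if both control lists and neither knockdown list called them, and as gained in the opposite case. Under siDRR, 12 of the 1289 ATAC regions in members were lost (0.931%) and 25 were gained (1.94%), where the background over all ATAC regions was 1.31% lost and 1.44% gained. In narrower regions 0.724% were lost and 3.49% gained. All 4 lists called 739 of the members' ATAC regions (57.3%), against a background of 16.3% and 20.6% in narrower regions. Under siSmc3, 23 of 1312 were lost (1.75%) and 21 gained (1.60%), where the background was 1.71% and 1.93%. In narrower regions 1.41% were lost and 3.05% gained. All 4 lists called 693 of the members' ATAC regions (52.8%), against a background of 13.6% and 17.9% in narrower regions. Lost and gained shares in members thus lay near the background over all ATAC regions, while gained shares lay below those in narrower regions under both knockdowns. No test was made on these counts because the comparisons share their controls and each group has only 2 libraries.

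The lost sites with the best ranks under siDRR lay in chr1:193914008-193917672 and chr10:23328431-23332039, at mean percentiles of 66.8 and 66.7 in the control lists. The best-ranked gained sites lay in chr8:6571619-6575183 and chr4:135697568-135706599, at 57.7 and 56.3 in the siDRR lists. Under siSmc3 the lost sites with the best ranks lay in chr16:92950870-92955725 and chr15:85439704-85445204, at 70.6 and 65.2. The gained ones lay in chr10:79626291-79631917 and chr13:104707916-104712546, at 58.4 and 53.7. None of these 8 sites was among the best-ranked 25% of its lists on average.

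ChIRP asked whether the DRR RNA touched the broad regions, and each pool has its own probes, so a site found by both pools is the stricter call. Each ChIRP list held 3776 to 68812 summits of a single base. For calls of both pools a flank of 250 bp was added to either side of a summit. A summit lay in 7 and 110 members in pool 1 (0.817% and 12.8%) and in 87 and 53 members in pool 2 (10.2% and 6.18%). Per Mb of sequence, broad regions held 1.88 and 30.6 summits in pool 1 and 24.7 and 14.5 in pool 2, against 2.50 and 29.2 in pool 1 and 17.0 and 11.4 in pool 2 for narrower regions. The difference of 2.92 summits per Mb ranged between -0.621 and 7.75 and was positive in 3 of 4 libraries. The exact sign-flip permutation p was 0.25, where 4 libraries allow 0.125 at best, and 0.563 after adjustment. Over the whole span of the chromosomes the density was 1.43 and 25.8 summits per Mb in pool 1 and 8.71 and 7.66 in pool 2, so broad and narrower regions both lay above it in each library. The LacZ probe libraries were not analysed here, so no control probe stands beside these densities.

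ChIRP regions of both pools met at 14 members (1.63%), against a background of 0.317% of all SMC3 regions and 35 narrower regions (0.277%). Per Mb this was 3.76 in broad and 1.90 in narrower regions. Summits of the 2 pools may lie anywhere in a region, so a wider region meets both more easily. A value per Mb does not fully correct for this. At 6 members the summits of the pools joined into 1 shared site, which was 1.61 per Mb against 1.41 per Mb in narrower regions. Without the flank, pool 1 replicate 1 hit only 7 members at all. With the flank, 9 members were hit in both libraries of pool 1, and no member was hit in all 4 ChIRP libraries. Besides the 14 members with both pools, 108 were hit by pool 1 only and 91 by pool 2 only.

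The member with ChIRP of both pools and the best SMC3 rank was chr10:21712332-21716652. Its SMC3 peaks measured 2783 and 4179 bp in siDRR myotubes, 4206 and 4060 bp in myotubes, and 4104 and 4321 bp in myoblasts. The pools shared no site in this member: the pool 1 summit lay at position 21712409 and the pool 2 summits at 21716303 and 21716287, near the other end. These summits ranked low in their lists, at 7.21, 28.6 and 2.53. At chr5:114220867-114224606 the summits of pool 1 replicate 2 and pool 2 replicate 2 lay at positions 114222421 and 114222636. SMC3 peaks there measured 1378 and 2009 bp in siDRR myotubes, against 3662 and 3439 bp in myotubes and 3138 and 3657 bp in myoblasts. At chr12:113910465-113914304 pool 1 replicate 2 and pool 2 replicate 1 shared a site, and neither siDRR list had an SMC3 peak. Its widest SMC3 peak was 3840 and 2336 bp in myotubes and 1260 and 1176 bp in myoblasts. At chr15:25370050-25375823 the widest SMC3 peak was absent and 1927 bp in siDRR myotubes, 1932 and 1848 bp in myotubes, and 4898 and 5774 bp in myoblasts. The 4 loci thus showed no common order of the 3 groups.

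Within members, the shares of ChIRP summits over open DNA lay on both sides of the open share of the members' bases, and no test was made. The share of summits inside a control ATAC peak was 28.6% and 46.5% in pool 1 and 43.5% and 51.9% in pool 2, where ATAC peaks of the control lists covered 48.7% of the members' bases. The first of these shares rests on 7 summits.

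The broad regions were spread unevenly over the chromosomes. Chromosome 15 held the most, 73, followed by chromosome 2 with 68. As a share of the regions under the call rule, chromosome 15 also came first, with 12.3% of its 593 regions, followed by chromosomes 8 with 8.98% and 13 with 8.63%. The X chromosome held 9 (3.33%) and chromosome 7 held 30 (3.68%). The median distance to the nearest other member was 329.7 kb, and 135 members (15.8%) had another within 50 kb, of which 55 had one within 10 kb. Joined at 50 kb, 722 members stood alone, 53 runs held 2, 7 runs held 3 and 2 runs held 4. The runs of 4 spanned chr12:81211319-81301431, 90.1 kb, and chr11:117098916-117222053, 123 kb. The second of these includes the member with the 10396 bp myotube peak.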

How the data were processed

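One peak list per library was used for 16 of 26 samples. Columns 1 to 3 are mm9 positions and column 5 is a score per peak as the authors deposited it, on an unstated scale. Tools named in the submitters' processing notes, with no roles, are MACS2, MACS 1.4.2, Bowtie2 2.2.4, Bowtie 1.1.1, cutadapt 1.12, bcl2fastq 2.17.1 and CASAVA 1.8.2. For calling thresholds, control tracks and any shift of ATAC reads, the sources used here give nothing. Depth is unknown, so scores only ranked peaks inside a list, and intervals cover counting error only.

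Starts were made 1-based, and a region was called in a library if any of its peaks touched it by 1 bp. Values over libraries were compared by exact two-sided permutation tests. Python 3.11.15, numpy 2.4.6, pandas 2.3.3 and scipy 1.17.1 were used, and the procedures were tested on simulated data. Regions were named by a fixed rule: the 8 widest, the 5 best-ranked, up to 8 without siDRR calls or with ChIRP of both pools, the 5 with most ATAC cover, changed ATAC sites and the 3 on each side of the width limit. The text prints part of them. The regions, lists and tests were chosen with earlier results of these data known. Alternatives covered the width limit, list length, score, merging, joining overlap and each left-out library. The annotation at hand is of another build, so no gene names, motifs or sequences were assigned.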

Additional observations from a re-analysis of the deposited data

How the results depend on the processing

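The number of broad regions rests on the processing. It was 1379 at 2500 bp or wider, 376 at 4000 bp or wider, 428 with the better-scoring 50% of each list and 376 with lists of equal length, against 857 as reported. With 1 SMC3 library left out it was 619 to 1752, the highest without myotube replicate 1. The share called in both siDRR lists was 48.6% with the better-scoring 50% and 76.1% with lists of equal length, against 52.6%. It was 28.6 to 96.6% with 1 library left out, the lowest without myotube replicate 1 and the highest without siDRR replicate 1, when only 1 siDRR list remains. A single peak of 3 kb in both myotube lists was held by 24.2% of regions at 4000 bp or wider and by 30.1 to 49.6% with 1 library left out. SMC3 cover, siDRR minus myotube, was -50.2 to -11.4 points with 1 library left out. The value of -50.2 is without siDRR replicate 2, and -11.4 without siDRR replicate 1.

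ATAC cover, broad minus narrower, was 15.4 to 21.3 points with 1 library left out. With 5 ATAC libraries the exact permutation p could not go below 0.0625, so the loss of the call follows from the number of libraries. It was 16.9 to 27.4 points under the other planned settings. ATAC cover, siDRR minus control, was -0.00613 points over the central 1000 bp and -8.68 to 9.41 points with 1 library left out, turning negative without siDRR replicate 2 (-8.68), control replicate 1 (-3.72) or myotube SMC3 replicate 1 (-0.175). The siSmc3 difference was -12.2 to 7.04 points, turning positive without siSmc3 replicate 1 (7.04) or control replicate 2 (1.49). Neither difference had a stable direction, and the cause was not tested.

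Replicate numbers were not taken as pairs in the main tests, since the labels tie them to no shared culture and there are only 2. Replicate 1 had the shorter list in each SMC3 and each ATAC group, and a batch shared by replicate number was not tested. Deviations of same-numbered libraries correlated over members at 0.249, 0.217 and 0.192 in ATAC cover, and at 0.0392, -0.00900 and 0.0821 in SMC3 cover. With the replicate block the differences were the same by construction: 0.361 points for siDRR and -2.59 for siSmc3 in ATAC cover (exact permutation p = 1 each), -30.7 in SMC3 cover, and -2.06 in the share of peaks of 3 kb (p = 0.5, the smallest possible in that exact permutation test). Of the 37 named regions that were checked, 21 stayed broad at 4000 bp, 15 with the better-scoring 50%, 14 with equal lengths and 23 without myoblast replicate 2. The share of peaks of 3 kb and the narrower class of 2 to 3 kb were chosen after seeing the data, as were the regions set by the myoblast lists.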
